A study of Rattus norvegicus with 6 samples.

Results

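The fibroblast growth factor (FGF) genes examined here were 6 ligand genes (Fgf1, Fgf2, Fgf9, Fgf16, Fgf21 and Fgf23) and the 4 receptor tyrosine kinase genes Fgfr1 to Fgfr4, 10 genes of the 14506 that could be named on the arrays. Each was taken by its symbol in the platform annotation, and each had 1 probe set among the 15310 paired with a single symbol. These genes were picked with earlier results of the same arrays known, so their hCT1-against-control values are given as a description and carry no p-value. The cells were primary neonatal cardiomyocytes, the beating muscle cells of the heart, isolated from ventricles of 2-day-old Sprague-Dawley rats and pre-plated to remove fibroblasts, with the digest fractions pooled. In 1 group of 3 samples they received recombinant human cardiotrophin 1 (hCT1, 0.5 nM), a cytokine that signals through the receptor chain gp130, for 24 h, and in the other 3 samples control serum-free medium for the same time. The growth protocol of all 6 samples also names a hypertrophic agonist, whereas the treatment protocol names serum-free medium for the controls; if an agonist was present, every comparison is against that. RNA was isolated in triplicate, with no statement on whether each came from its own culture, so errors and p-values cover only the variation among these 6 arrays, which may be technical.

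FGFs are secreted proteins that bind FGF receptors at the cell surface and start signaling through the adaptor FRS2, RAS and ERK. Paracrine members such as FGF1, FGF2, FGF9 and FGF16 act locally with heparan sulfate as a cofactor, whereas FGF21 and FGF23 circulate as hormones and use the Klotho proteins as co-receptors. In the heart FGF2 is known for hypertrophic growth and protection from injury, FGF9 and FGF16 for growth of the fetal myocardium, and FGF23, a bone hormone that lowers blood phosphate, for a link with hypertrophy in kidney disease. Values below are log2 RMA signals per probe set, and a difference is the hCT1 mean minus the control mean on that scale.

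Fgf23 was higher with hCT1, by a measured 4.41-fold over control signals as dim as those of genes of other organs, and Fgf2 was 1.21-fold higher. Fgf1 and Fgf9 were lower by 1.23-fold and 1.18-fold. These 4 of 10 members, 2 in each direction, passed an adjusted p of 0.05 in limma's fit across all probe sets, which 14.7% of all named genes passed (5.09% higher and 9.58% lower), and nothing is read from this count because the members were chosen from the same contrast. The 4 receptor genes did not pass. The median difference was -0.085 over the 10 members and -0.00048 over all 14506 genes. In 5 members, namely Fgf1, Fgf2, Fgf9, Fgf23 and Fgfr1, the 3 hCT1 samples did not overlap with the 3 control samples, as was the case for 34.2% of all genes (14.2% above and 20% below). The arrays give no detection calls, and their number limits the precision.

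**Figure D1:**
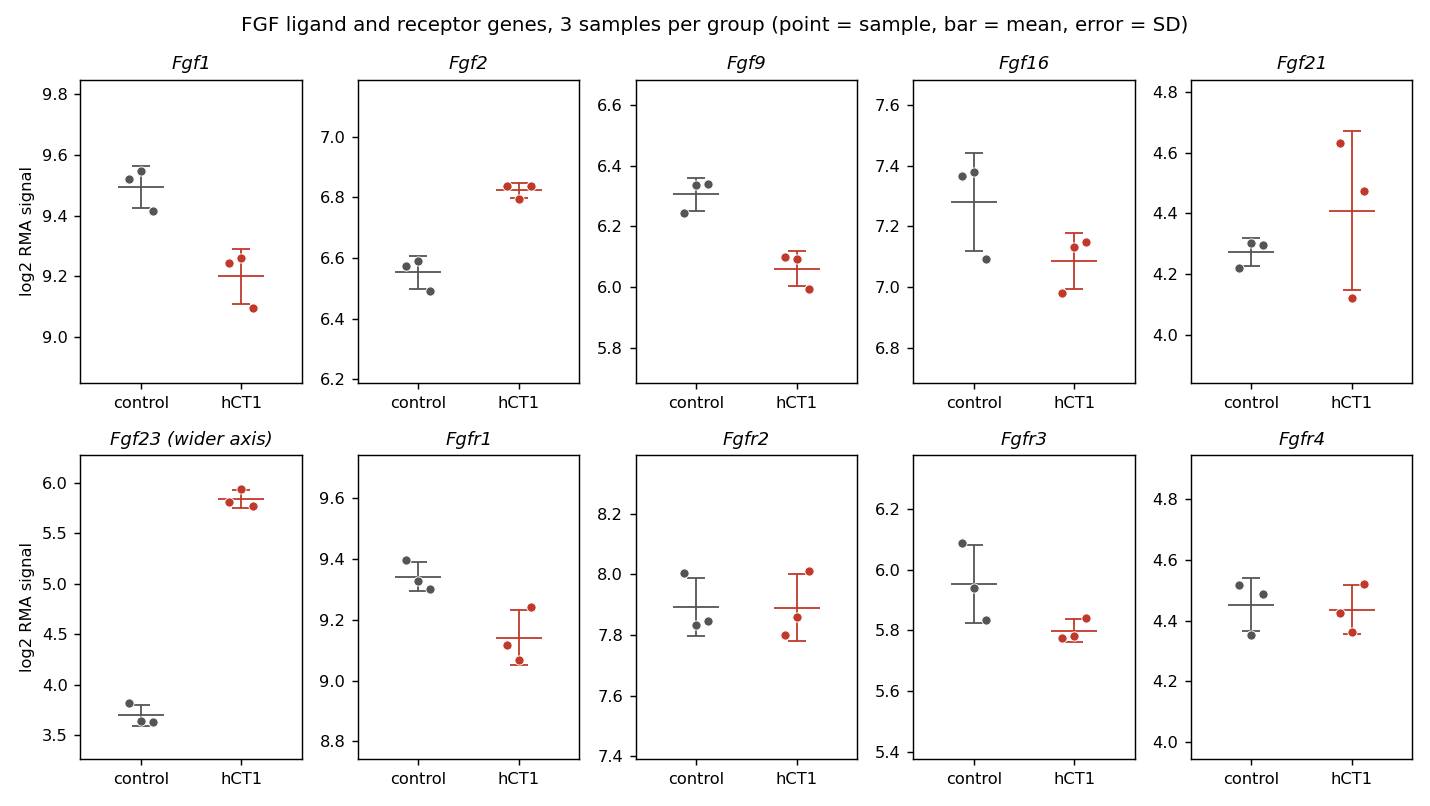
The log2 RMA signal of the 10 member genes (vertical axes, each spanning 1 unit, wider for Fgf23) is shown for the 3 controls (grey) and the 3 samples given hCT1 (red); points are samples, horizontal bars means and error bars SD. The hCT1 samples of Fgf23 lie between 5.77 and 5.94, above the control samples between 3.64 and 3.82, whereas Fgfr2 and Fgfr4 overlap fully.

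Among the hormone-like ligands, the log2 signal of Fgf23 (probe set 10859003) was 3.82, 3.64 and 3.64 in the control samples and 5.80, 5.94 and 5.77 in the hCT1-treated samples. All 3 treated samples lay about as far above the controls as each other. The means were 3.70 ± 0.10 and 5.84 ± 0.09 (SD, n = 3 each), a difference of 2.14 (SE 0.07, 95% interval 1.98 to 2.30). In control samples Fgf23 lay at percentile 16.8 of the signals of tested probe sets, and with hCT1 at percentile 41.6. As a gauge of dim signal, 11 genes of other organs, such as the hormone genes Ins1, Gcg and Prl, read between 3.18 and 5.08 over the 6 samples. The control values of Fgf23 lay inside this range and the hCT1 values above it, although probe sets differ in brightness for the same amount of RNA. Where a control value is near background, the fold is likely to be too small.

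Fgf21, the hormone of fasting and mitochondrial stress (probe set 10721871), had log2 signals of 4.22, 4.30 and 4.29 in control samples and 4.63, 4.12 and 4.47 in hCT1-treated samples. The groups overlapped, since hCT1 replicate 2 was the lowest of the 6 samples and hCT1 replicate 1 the highest. The SD of 0.26 in the treated group was the largest of any member in either group. The difference was 0.14 (SE 0.11, 95% interval -0.12 to 0.39), and all 6 values lay in the range of the genes of other organs.

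Of the paracrine ligands, Fgf2, or basic FGF (probe set 10815026), had log2 signals of 6.58, 6.59 and 6.49 in control samples and 6.84, 6.80 and 6.84 in hCT1-treated samples. The hCT1 samples were all higher and close together (SD 0.024, n = 3), with a difference of 0.27 (SE 0.06, 95% interval 0.15 to 0.40). Fgf2 and Fgf23 were the members that stayed past the threshold in every setting run on them, including each sample left out in turn. Fgf23 could not be fitted where probe sets with a mean signal under the 40th percentile were dropped, and neither could Fgf21 and Fgfr4.

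Fgf1, or acidic FGF, a ligand of all FGF receptors (probe set 10804127), went the other way. Its log2 signal was 9.52, 9.55 and 9.42 in control samples and 9.24, 9.26 and 9.10 in hCT1-treated samples, with no overlap. The difference was -0.29 (SE 0.07, 95% interval -0.44 to -0.14). It no longer passed without control replicate 1 (-0.28), control replicate 2 (-0.27) or hCT1 replicate 3 (-0.24), or with each array centred on its median (-0.20). Nor did it pass by the one-way test that the study's methods name, once adjusted over all 15310 probe sets, a step added here.

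Fgf9 (probe set 10780813) had log2 signals of 6.24, 6.33 and 6.34 in control samples and 6.10, 6.09 and 5.99 in hCT1-treated samples, also without overlap. The difference was -0.24 (SE 0.06, 95% interval -0.38 to -0.11). Its call was the least stable of the 4: it was lost without control replicate 2 (-0.23) or hCT1 replicate 1 (-0.26), 2 (-0.26) or 3 (-0.21), after another quantile normalization (-0.19), after centring (-0.15), with all probe sets in the adjustment and by the adjusted one-way test. Fgf16, a ligand made by cardiomyocytes (probe set 10934569), read 7.37, 7.38 and 7.09 in control samples and 6.98, 7.13 and 7.15 in hCT1-treated samples. Here 1 control sample, replicate 3, lay among the treated ones, and the difference of -0.19 (SE 0.09, 95% interval -0.39 to 0.003) passed only without that sample (-0.29).

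Fgfr1, the main FGF receptor of cardiac muscle (probe set 10792304), read 9.40, 9.33 and 9.30 in control samples and 9.12, 9.07 and 9.24 in hCT1-treated samples. The groups did not overlap, but the difference of -0.20 (SE 0.06, 95% interval -0.35 to -0.06) did not pass the threshold. It passed without hCT1 replicate 3 (-0.25), once dim probe sets were removed (-0.20), with array weights (-0.20) and with a trended, robust eBayes step (-0.20).

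Fgfr2 (probe set 10726172) read 8.003, 7.83 and 7.84 in control samples and 7.80, 7.86 and 8.01 in hCT1-treated samples. The difference of -0.0030 (SE 0.07) had a 95% interval of -0.17 to 0.17, so that a change of more than about that size in either direction lay outside it. Fgfr3 (probe set 10777748) read 6.09, 5.94 and 5.83 in control samples and 5.78, 5.78 and 5.84 in hCT1-treated samples, a difference of -0.15 (SE 0.07, 95% interval -0.32 to 0.008). The groups overlapped by the lowest control and the highest treated sample. Fgfr4, the receptor that carries the FGF23 signal in studies of cardiac hypertrophy (probe set 10797323), read 4.52, 4.35 and 4.49 in control samples and 4.43, 4.36 and 4.52 in hCT1-treated samples. Its difference was -0.017 (SE 0.07, 95% interval -0.17 to 0.14), and its signal lay within the range of the genes of other organs.

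**Figure D2:**
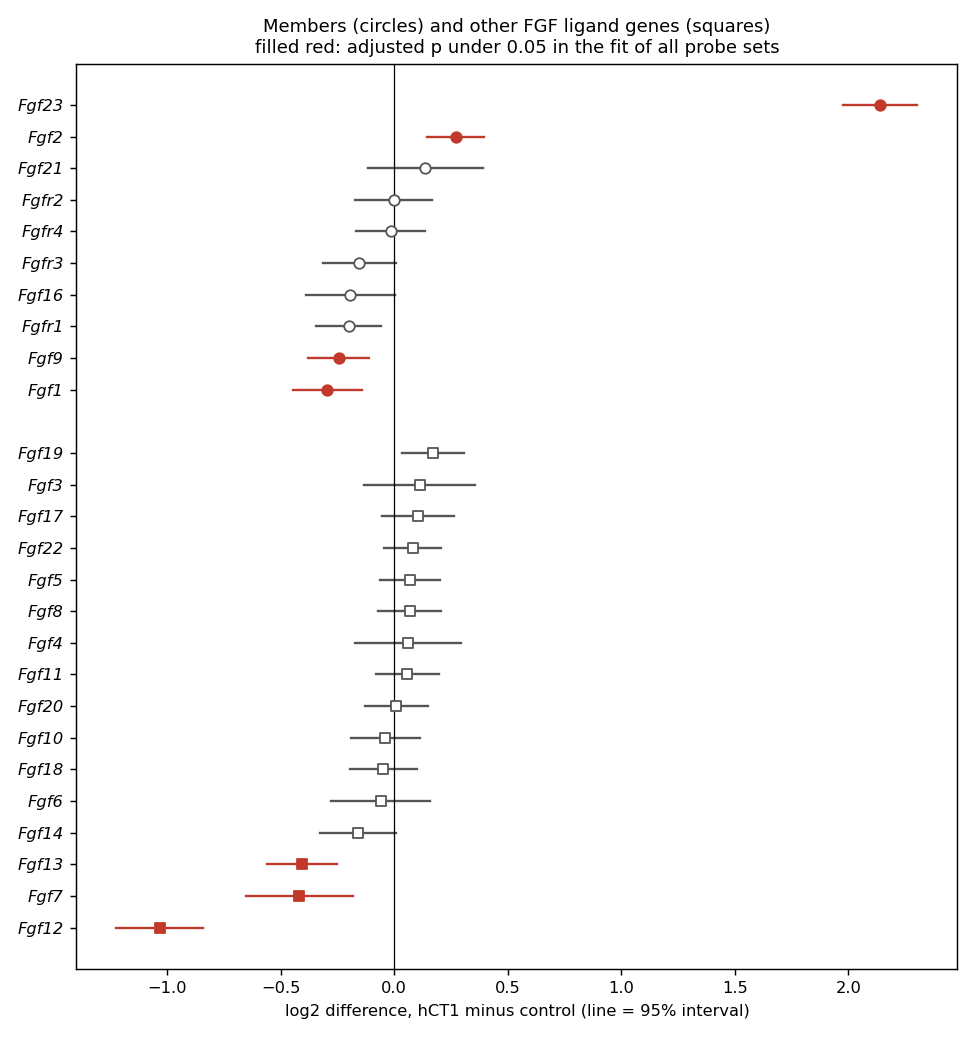
The log2 difference, hCT1 minus control, is plotted with its 95% interval for the 10 members (circles) and the 16 other FGF genes measured (squares). The squares include the intracellular Fgf11 to Fgf14. Filled red symbols passed an adjusted p of 0.05 in limma. Fgf23 lies at 2.14, all other members between -0.29 and 0.27, and Fgf12 at -1.03.

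To show the sequence around the starts of the 3 moderate members that passed, the 250 bases before the gene start were read from the RefSeq promoter table (GRCr8), which held 8 of the 10 members and not Fgf23 or Fgfr1. Both strands were searched for 4 motifs: TTCNNNGAA, the core bound by STAT factors, TGANTCA for AP-1, TATAAA, and the E-box CACGTG. Capitals mark the matches and the gene start follows the last base.
Fgf2, chr2:122164204-122164453, plus strand: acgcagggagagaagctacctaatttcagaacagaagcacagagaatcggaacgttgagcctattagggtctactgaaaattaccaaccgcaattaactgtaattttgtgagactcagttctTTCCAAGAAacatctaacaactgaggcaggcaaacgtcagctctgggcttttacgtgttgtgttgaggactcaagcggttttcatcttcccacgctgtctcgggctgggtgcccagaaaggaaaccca
Fgf1, chr18:30961394-30961643, minus strand: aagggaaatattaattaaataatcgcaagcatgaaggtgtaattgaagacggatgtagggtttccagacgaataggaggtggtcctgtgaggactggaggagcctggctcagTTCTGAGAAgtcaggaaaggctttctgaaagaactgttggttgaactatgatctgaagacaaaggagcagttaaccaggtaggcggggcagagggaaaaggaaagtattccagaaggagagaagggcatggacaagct
Fgf9, chr15:36327108-36327357, plus strand: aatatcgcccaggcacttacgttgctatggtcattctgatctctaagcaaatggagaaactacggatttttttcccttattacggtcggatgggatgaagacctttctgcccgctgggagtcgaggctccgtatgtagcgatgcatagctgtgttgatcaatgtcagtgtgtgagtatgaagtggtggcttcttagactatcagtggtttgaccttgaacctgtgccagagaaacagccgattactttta

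The STAT letters began 128 bases before the start of Fgf2 (TTCCAAGAA) and 138 bases before that of Fgf1 (TTCTGAGAA), 2 genes whose signals differed in opposite directions with hCT1, and were not in the Fgf9 window or those of the other 5 members. Of 33469 promoters of the same length, 7.67% held them. The Fgf21 window held TATAAA and CACGTG, and that of Fgf16 held TATAAA, letters that 12.9% (TATAAA) and 5.59% (CACGTG) of promoters held. Such matches are a description of the letters and not of binding.

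The genes next to the 4 members past the threshold in the RefSeq gene order were read as well, a comparison chosen after the members' values were seen. Fgf23 lies between Fgf6, another FGF ligand gene, and Tigar, a regulator of glycolysis. Fgf6 had a difference of -0.06 (SE 0.10) and Tigar of 0.01 (SE 0.09), so neither stood near the 2.14 of Fgf23. The signals of Fgf6, 3.79 to 4.18 over the 6 samples, lay within the range of the genes of other organs, where a small change may not be seen. Fgf2 overlaps Nudt6 on the opposite strand, long known as the FGF2 antisense gene. Nudt6 fell by 0.40 (SE 0.08, adjusted p = 0.0147 from limma), from a mean of 6.82 to 6.42, where Fgf2 was higher by 0.27. Fgf1 overlaps Arhgap26 on the opposite strand, which fell by 0.70 (SE 0.06, adjusted p = 0.000131 from limma). Nr3c1, the glucocorticoid receptor gene on the other side of Fgf1, had a difference of 0.01 (SE 0.06) and did not pass. The genes on the other sides of Fgf2 and Fgf9, Bbs12 and 1700129C05Rikl, were not tested. How far signal of an overlapping partner reaches a probe set was not tested. Micu2, a mitochondrial calcium uptake gene beside Fgf9, rose by 0.33 (SE 0.09, adjusted p = 0.0335 from limma).

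By Pearson's r over the 6 samples, the genes with patterns most like Fgf23 were the activin receptor gene Acvr1b (0.998), Tsc22d1 (0.998) and Socs3 (0.997), the feedback inhibitor of gp130 signaling. Those most like Fgf2 were Olr876, Acer2 and Parg (0.998 to 0.999), those most like Fgf1 were Trak2, Cth and Rab29 (0.991 to 0.998), and those most like Fgf9 were Cd36, Smim8 and Vps26b (0.993 to 0.995). With 2 groups and 6 samples such values are common, and 149 probe sets had an r above 0.98 with Fgf23, against 87 for Fgf2, 26 for Fgf9 and 22 for Fgf1. These are descriptions of samples that share the treatment.

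The other genes of the pathway were taken from 5 lists of known function, drawn up with earlier results of these arrays known, with the brightest probe set standing for a gene. The first list held 16 other FGF genes measured, with Fgf11 to Fgf14 among them, which encode intracellular factors rather than secreted ligands. Among the 16, 3 fell and 0 rose, with a median difference of 0.03, beside 14.7% called among all genes (9.58% lower). At an unadjusted p under 0.05 from limma, 1 was higher (Fgf19, 0.17, SE 0.06) and 3 lower, with no share of all genes counted there. The signals of Fgf19, 3.81 to 4.12 over the 6 samples, lay within the range of the genes of other organs. Fgf12, which encodes an intracellular FGF homologous factor that is not secreted and binds sodium channels, read 6.42, 6.51 and 6.45 in control samples and 5.63, 5.36 and 5.30 in hCT1-treated samples. All 3 treated samples lay well below the controls, and the fall was 2.05-fold (difference -1.03, SE 0.09, adjusted p = 9.38e-05 from limma). It passed in all 14 other settings. Fgf13, of the same intracellular group, fell by 0.41 (SE 0.07, adjusted p = 0.00529 from limma) from 7.31, 7.15 and 7.12 to 6.72, 6.86 and 6.77. The other members of that group were Fgf14 (-0.16, SE 0.07), whose signals of 2.88 to 3.23 lay at or below the dimmest genes of other organs, and Fgf11 (0.06, SE 0.06), and neither passed. Fgf7, or keratinocyte growth factor, a mesenchymal ligand of a splice form of FGFR2, fell by 0.42 (SE 0.10, adjusted p = 0.0276 from limma). Its signals were 4.96, 4.995 and 5.02 in control samples and 4.73, 4.69 and 4.30 in hCT1-treated samples, all within the range of the genes of other organs. The call was lost without any 1 of the 3 controls, after centring, with all probe sets in the adjustment and by the adjusted one-way test.

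**Figure D3:**
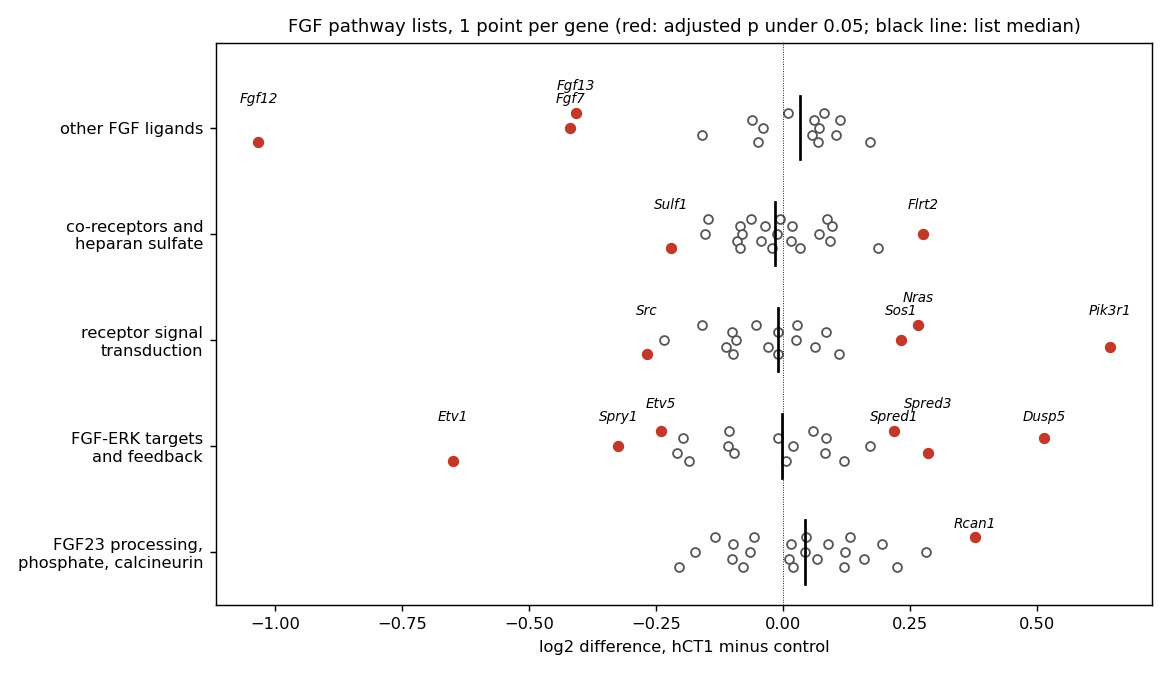
Each point is the log2 difference of 1 gene, hCT1 minus control, in 5 pathway lists (rows); genes past limma's adjusted threshold of 0.05 are red and named, the rest are open, and black lines are list medians. The medians lie between -0.017 and 0.042, and the points farthest out are Fgf12 at -1.03, Etv1 at -0.65 and Pik3r1 at 0.64.

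The next list held co-receptors, heparan sulfate proteoglycans and the enzymes that build or trim heparan sulfate. Among 22 measured genes 1 rose and 1 fell, beside 5.09% higher and 9.58% lower among all genes, the other 20 stayed short of the threshold, and the median difference was -0.017. Flrt2, a membrane protein that binds FGF receptors, rose by 0.28 (SE 0.07, adjusted p = 0.0275 from limma) and Sulf1, a sulfatase that removes sulfate groups from heparan sulfate, fell by 0.22 (SE 0.06, adjusted p = 0.0309 from limma). Leaving out any sample but control replicate 2 ended the Flrt2 call (0.24 to 0.29), and leaving out any but control replicate 3 ended that of Sulf1 (-0.24 to -0.20). Both calls were also lost by the adjusted one-way test, with all probe sets in the adjustment and with replicate number as a block. Centring ended that of Sulf1 too. Sulf2, its paralog, had a difference of 0.19 (SE 0.06) and did not pass (adjusted p = 0.0668 from limma). Kl, which encodes alpha-Klotho, the co-receptor of FGF23, read between 4.10 and 4.29 in all 6 samples, within the range of the genes of other organs, with a difference of -0.02 (SE 0.07). Klb was not measured by a probe set with 1 symbol.

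Of 19 genes of receptor signal transduction, 3 rose and 1 fell (5.09% and 9.58% of all genes), 15 stayed short of the threshold, and the median difference was -0.010. Pik3r1, the regulatory subunit of phosphoinositide 3-kinase, rose 1.56-fold, from 8.89, 8.94 and 8.95 in control samples to 9.50, 9.67 and 9.53 with hCT1 (difference 0.64, SE 0.06, adjusted p = 0.000276 from limma). All 3 treated samples lay above the controls, and the call held in all 14 other settings. Nras rose by 0.27 (SE 0.06, adjusted p = 0.0143 from limma) and its exchange factor gene Sos1 by 0.23 (SE 0.06, adjusted p = 0.026 from limma), whereas the kinase gene Src fell by 0.27 (SE 0.08, adjusted p = 0.047 from limma). The Nras call was lost only without control replicate 2 (0.23). That of Sos1 was lost when hCT1 replicate 2 (0.22), hCT1 replicate 3 (0.22) or control replicate 1 (0.21) was dropped. That of Src was lost on leaving out any sample but control replicate 3 (-0.31 to -0.21). The Sos1 and Src calls were also lost by the adjusted one-way test, with all probe sets in the adjustment and with replicate number as a block. Src lost its call after quantile normalization and centring as well. The receptor adaptor gene Frs2 had a difference of 0.11 (SE 0.08) and did not pass.

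Targets and feedback inhibitors of FGF and ERK signaling went both ways: 3 of 20 rose and 3 fell (5.09% and 9.58% of all genes), 14 stayed short of the threshold, and the median difference was -0.0022. Etv1, an ETS factor gene, fell by 0.65 (SE 0.05, adjusted p = 0.00011 from limma), from 9.42, 9.35 and 9.39 in control samples to 8.76, 8.77 and 8.69 with hCT1. Spry1, a feedback inhibitor of receptor tyrosine kinases, fell by 0.32 (SE 0.06, adjusted p = 0.0094 from limma) and Etv5 by 0.24 (SE 0.06, adjusted p = 0.0297 from limma). Dusp5, the nuclear ERK phosphatase, rose by 0.51 (SE 0.07, adjusted p = 0.00231 from limma), from 9.42, 9.34 and 9.20 to 9.93, 9.75 and 9.83. Spred3 rose by 0.28 (SE 0.08, adjusted p = 0.0382 from limma) and Spred1 by 0.22 (SE 0.06, adjusted p = 0.0414 from limma). Dusp5 and Etv1 passed in all 14 other settings. The Spry1 call was lost by the adjusted one-way test only. That of Spred3 was lost on leaving out any sample but hCT1 replicate 2 (0.23 to 0.32). It was also lost by the adjusted one-way test, with all probe sets in the adjustment and with replicate number as a block. The Etv5 and Spred1 calls were lost without control replicate 1, control replicate 2 or any 1 of the hCT1 samples. Both were lost too with all probe sets in the adjustment and with the block. Dusp6, often used as a readout of FGF activity, had a difference of -0.11 (SE 0.05) and did not pass, like Spry2 (-0.19), Spry4 (0.12), Etv4 (-0.11), Egr1 (0.06) and Fos (0.17).

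Genes that process FGF23, handle phosphate and vitamin D or belong to the calcineurin pathway numbered 23, of which 1 rose, 0 fell and 22 did not pass in limma (5.09% of all genes rose and 9.58% fell). Before adjustment of p, 5 were higher and 2 lower at 0.05, and no share of all genes was counted at that threshold. Rcan1, the calcineurin regulator that calcineurin itself induces, rose by 0.38 (SE 0.08, adjusted p = 0.0115 from limma), from 9.80, 9.92 and 9.97 in control samples to 10.35, 10.34 and 10.13 with hCT1. The glycosyltransferase gene Galnt3, which protects FGF23 from cleavage, had a difference of -0.13 (SE 0.07), and the protease gene Furin, which cleaves it, of 0.07 (SE 0.08), and neither passed. The count of higher genes in this list depended on the setting, being 4 with array weights, with a trended, robust eBayes step or without dim probe sets, 5 after centring, and 0 by the adjusted one-way test.

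All 10 cardiomyocyte markers were bright, with control signals between 8.55 and 12.11. Bright signals were not limited to them. Control values ran from 6.40 to 11.69 for fibroblast markers and from 6.23 to 12.36 for smooth muscle markers. Of the 10 cardiomyocyte markers, 5 fell (Tnni3, Myl2, Myh6, Mybpc3 and Ttn), beside 5.09% higher and 9.58% lower among all genes. The summed linear signal of the 10 was 20246 to 20630 in control and 18204 to 19235 in hCT1-treated samples. None of 10 fibroblast markers passed (at an unadjusted p under 0.05, 1 was higher and 2 lower; sums 8922 to 9400 and 8454 to 8681), 3 of 6 smooth muscle markers fell (sums 9612 to 9892 and 9070 to 9260), 1 of 9 endothelial markers fell (sums 1180 to 1323 and 1184 to 1240), and 1 of 10 leukocyte markers fell (sums 626 to 664 and 520 to 587). Their part in the FGF values was not tested, and no share of all genes was counted at the unadjusted threshold. In such bulk samples, fewer cells of a type and less RNA per cell cannot be told apart.

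**Figure D4:**
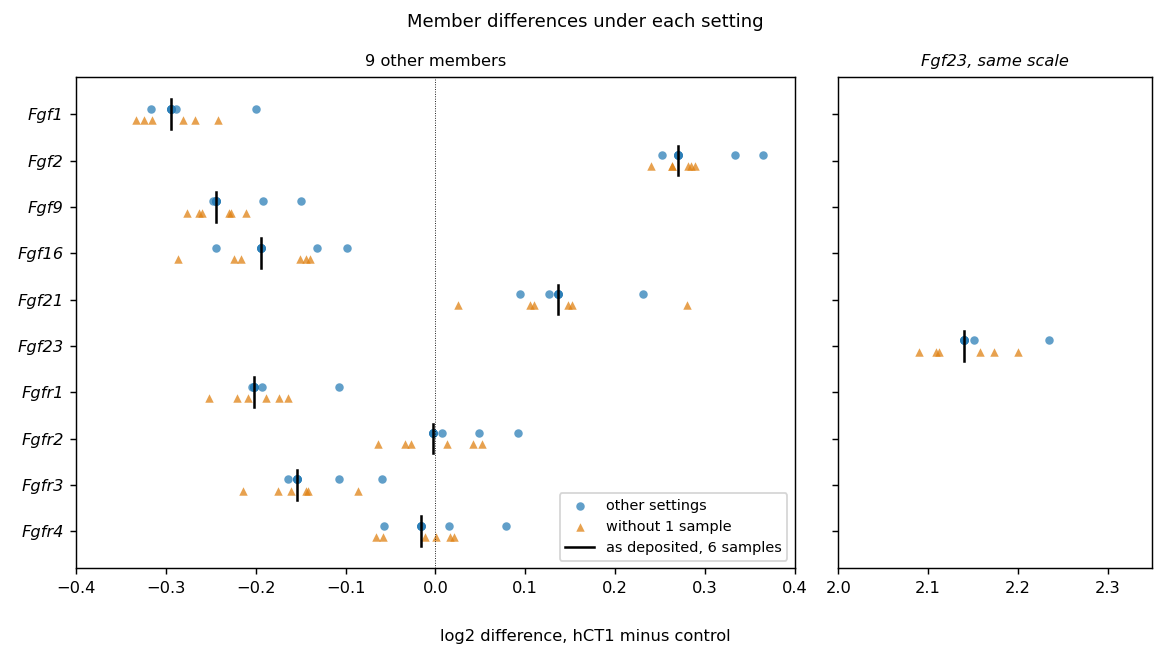
The log2 difference of each member, hCT1 minus control, is shown as deposited (black line), under other fits and normalizations (blue circles) and with 1 sample left out (orange triangles); Fgf23 has its own panel at the same scale. Fgf2 stays between 0.24 and 0.37 and Fgf23 between 2.09 and 2.24, whereas Fgfr2 and Fgfr4 lie on both sides of 0.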

How the data were processed

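Each of the 6 RNA samples was read on 1 Affymetrix rat array. The deposited values are log2 signals that the authors made with RMA in Affymetrix Expression Console (background correction, quantile normalization and a summary per probe set), per the labels, and they were used as deposited. Of 29215 probe sets, 15310 carried 1 symbol and were tested, 323 carried several and 13582 none. No genome build is given for them in the sources used here.

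Groups were compared with limma 3.58.1 in R 4.3.3 (lmFit, eBayes, 2-sided), and p-values were adjusted by Benjamini and Hochberg's method over all 15310, with calls at 0.05. In data simulated on these probe sets it recovered 66 of 66 changes of 1, 47 of 67 of 0.5 and 13 of 67 of 0.25, with 8 false calls among 134. Only those 66 or 67 probe sets per size were changed, against 2268 called in the real fit. The noise was drawn independently for each probe set, so recovery in the real data may differ. The members and lists were chosen with earlier results of these data known. From each list the 4 largest called differences (2 where none passed) were to be named; others were named after their values were seen. The alternatives, including the one-way test of the methods with and without adjustment, are given in the closing section.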

Additional observations from a re-analysis of the deposited data

How the results depend on the processing

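All 10 members kept their direction in every alternative except Fgfr2 and Fgfr4, whose near-zero differences turned positive with array weights (0.0075 and 0.015) and centring (0.092 and 0.078), Fgfr2 also after quantile normalization (0.049), and in leaving out samples ranged from -0.064 to 0.052 for Fgfr2 and -0.067 to 0.020 for Fgfr4. Members called were 1 higher without dim probe sets (7 members left) and 0 lower by the adjusted one-way test or centring, 1 lower over all probe sets, after quantile normalization or with the replicate block, 3 lower with trend, array weights or the filter, and 0 to 3 lower when 1 sample was left out; the block ended the Fgf9 call. By the one-way test without adjustment, 2 members were called higher and 3 lower, and no share of all genes was counted there. All calls numbered 2268 of the 15310 tested as reported, 1051 by the adjusted one-way test, 1500 with the block and 2065 after quantile normalization. They numbered 2872 with trend, 3069 after centring, 3109 with array weights and 1242 to 2683 without 1 sample. Over all probe sets the calls were 1973 of 29215, and with the filter 2779 of 9186. Those 2 totals are thus out of other numbers of probe sets. Samples with the same replicate number in their titles did not deviate alike (correlations of deviations -0.025, 0.046 and -0.28). With 3 samples per group this cannot settle whether they were paired. The differences themselves are the same with the block. For the other FGF genes 1 was lower by the one-way test and 1 higher after centring. For co-receptors, 2 were higher with trend, array weights, the filter, quantile normalization or centring, and 0 by the one-way test, over all probe sets or with the block; 0 were lower by the one-way test, over all probe sets, after centring or with the block. For signal transduction, 2 were lower with trend, array weights or the filter, and 0 by the one-way test, over all probe sets, with either normalization or the block. For targets, 5 were lower with trend or the filter, 6 with array weights and 1 by the one-way test, and 1 was higher over all probe sets or with the block and 5 after centring. For the FGF23 list, 4 were higher with trend, array weights or the filter, 2 after quantile normalization or with the block, 5 after centring and 0 by the one-way test, and 1 was lower with the filter. Leaving out 1 sample gave 0 to 1 higher and 0 to 1 lower co-receptors, 0 to 1 lower transduction genes, 1 to 2 higher and 2 to 5 lower targets and 1 to 2 higher genes of the FGF23 list. Each member has 1 probe set, so averaging probe sets changed no member's difference. Centring added the same amount to every difference, and the median difference over all tested probe sets went from -0.0028 to 0.092. Before it, the medians of tested probe sets were 6.69 to 6.76 in control arrays and 6.64 in each hCT1 array. The cause of the other shifts was not tested.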
